A study of Mus musculus with 10 samples.

Results

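Ferritin and iron handling genes comprised 7 named genes of the 52181 gene entries in the deposited table. They were Ftl1 and Fth1, the light and heavy chains of the iron storage protein ferritin, Hmox1, which breaks down haem, Slc40a1, the iron exporter ferroportin, Slc11a1 and Slc11a2, both divalent metal transporters, and Tfrc, the transferrin receptor. All 7 had an Ensembl entry and at least 56 unique molecular identifiers (UMIs, 1 per captured transcript). They were chosen by name, with earlier results of these data known. A further list of iron genes, 81 in all with the members included and 80 with an entry, served as their surroundings.

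The cells were droplet-captured (10x Genomics v2, which reads the 3′ end of transcripts) and labelled microglia or macrophages, the phagocytes of the nervous system. All mice were wildtype, of the strain written 129S1/SvlmJ in the labels (which also write P56), of both sexes and 10 weeks old at collection. Injured animals had the optic nerve crushed at 8 weeks of age, a lesion that severs the axons of retinal ganglion cells, and uninjured animals had no treatment. The groups were injured optic nerve 2 weeks after crush (libraries 1 and 3), uninjured optic nerve (libraries 2 and 4), injured retina 2 weeks after crush (pool 1 and 2, pool 3 and 4) and uninjured retina (libraries 5 and 6). The 10 samples appeared in the table as 8 libraries, because each injured retina pool joined 2 samples. The labels do not say how the cells were selected or which libraries came from separate animals, so the p-values measure the spread between libraries, which may in part be technical.

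Cells hold iron inside ferritin shells built from both chains: the heavy chain oxidises iron and the light chain helps it to settle as mineral. Iron regulatory proteins bind a short hairpin, the iron response element. When iron is scarce they block translation of ferritin and ferroportin from elements in the 5′ UTR, and they protect transferrin receptor mRNA through elements in its 3′ UTR. In phagocytes much of the iron comes from engulfed cells and myelin, haem iron is freed by Hmox1, and Slc11a1 moves metal out of the phagosome. Oligodendrocytes, the cells that make myelin, are rich in heavy-chain ferritin. Transcript levels do not measure the step of translation that these elements control.

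The hairpins are shown because both ferritin genes, Slc40a1 and Tfrc hold them. The search took the transcript strand of GENCODE M21 (genome build GRCm38) for C, any 5 bases, CAGTG, then A, C or T, then 5 bases that pair with the first 5, with pairs of G and T allowed. The capitals mark the loop of 6 bases, and 6 flanking bases stand on each side of the match. Ftl1 held the match in its 5′ UTR at chr7:45459779-45459807 on the minus strand. Fth1 held it in its 5′ UTR at chr19:9982732-9982760 on the plus strand. Slc40a1 held it in its 5′ UTR at chr1:45925465-45925493 on the minus strand. Tfrc held 4, named A to D here, in its 3′ UTR on the plus strand, at chr16:32631219-32631247, chr16:32631598-32631626, chr16:32631663-32631691 and chr16:32631710-32631738.
Ftl1: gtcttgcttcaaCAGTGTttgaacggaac
Fth1: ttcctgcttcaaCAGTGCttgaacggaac
Slc40a1: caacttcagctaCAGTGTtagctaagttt
Tfrc, element A: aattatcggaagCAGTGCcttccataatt
Tfrc, element B: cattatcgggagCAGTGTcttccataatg
Tfrc, element C: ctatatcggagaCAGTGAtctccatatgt
Tfrc, element D: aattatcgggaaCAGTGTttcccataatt
The elements of Ftl1 and Fth1 had the same base at 26 of 29 positions, whereas the element of Slc40a1 matched that of Ftl1 at 13 and that of Fth1 at 13. Of the 7 genes 4 held a match. Among 21877 protein-coding genes 222 (1.01%) held one anywhere, 23 (0.105%) in a 5′ UTR and 100 (0.457%) in a 3′ UTR. No match with this pattern was found in Hmox1, Slc11a1 or Slc11a2. The pattern requires 5 unbroken pairs beside the loop, so an element of another shape would be missed. A gene without a match may thus still hold an element, and a match is a description of sequence only.

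In GRCm38 Ftl1 lies at chr7:45457944-45459884, Fth1 at chr19:9980598-9985098, Hmox1 at chr8:75093621-75100589, Slc40a1 at chr1:45908068-45926523, Slc11a1 at chr1:74375195-74386062, Slc11a2 at chr15:100387898-100425072 and Tfrc at chr16:32608920-32632794. All are protein-coding. Ftl1 overlaps the small RNA gene Gm22133 and Gm10252 on the opposite strand, and Slc11a2 overlaps Gm5475 on the opposite strand. Ftl1 has many near-copies in the genome. Over its last 300 bases, where 3′ reads fall, 19 other genes were at least 90% identical across 100 or more bases. Of these 1 had an entry, Ftl1-ps1, 99% identical, with 421 UMIs in all against 61920 for Ftl1. In CPM (UMIs per 1000000 UMIs of the library) Ftl1-ps1 stood at 31.4 and 66.5 in injured nerve 1 and 3, 48.4 and 23.8 CPM in uninjured nerve 2 and 4, 22.5 and 32.2 CPM in the injured retina pools, and 7.003 and 17.6 CPM (1 UMI each) in uninjured retina 5 and 6. How reads that match more than 1 copy were counted is not given in the sources used here, so the Ftl1 level is uncertain to that extent. Fth1 had 2 near-copies, neither with an entry.

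The table held 1168 cells. Libraries held 12 to 682 cells and 56838 to 5234954 UMIs, and the median cell held 1078 to 12989 UMIs. Injured optic nerve 3 alone held 682 cells, and 2 barcodes occurred in both injured nerve libraries. Uninjured retina had no UMIs in the later part of the gene list, so its annotation or merging differed from that of the other libraries, and this difference cannot be told apart from injury in retina. Other cell types were present. The 8 T cell markers summed to 221 and 428 CPM in the injured retina pools, against 0 in both uninjured retina libraries, with 7 of 8 detected in each pool and Trac at 0. The 8 oligodendrocyte markers summed to 5880 and 1192 CPM in injured nerve 1 and 3 and to 11576 and 8072 CPM in uninjured nerve 2 and 4, against 70.0 to 90.1 CPM over the retina libraries. The 8 border macrophage markers summed to 1384 and 802 CPM in injured nerve 1 and 3 and to 4324 and 642 CPM in uninjured nerve 2 and 4. Endothelial markers summed to 3091 CPM in uninjured nerve 4, against at most 239 CPM elsewhere, and neutrophil markers to 751 CPM in uninjured nerve 2, against at most 26.7 CPM elsewhere. Uninjured nerve 2 also had the highest sums of fibroblast (700 CPM), pericyte (270 CPM) and erythroid markers (105 CPM, 4 of 5 detected). The 8 homeostatic microglia markers were all detected in every library, at 3333 to 14304 CPM.

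Ferritin was among the most abundant messages in every library. Fth1 ranked between the second and the seventh gene by UMIs in each, and Ftl1 between the ninth and the 82nd. Fth1 had 129093 UMIs in 99.3% of cells and Ftl1 had 61920 UMIs in 93.2% of cells. Together they made up 1.86% and 2.67% of UMIs in injured nerve 1 and 3, 1.51% and 1.66% in uninjured nerve 2 and 4, 2.07% and 1.52% in the injured retina pools, and 2.35% and 2.34% in uninjured retina 5 and 6. After crush the light chain was higher in nerve and lower in retina.

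In the optic nerve Ftl1 rose after crush. It stood at 4863 and 9522 CPM in injured nerve 1 and 3, against 4306 and 1747 CPM in uninjured nerve 2 and 4. The groups did not overlap, but injured library 1 lay close to uninjured library 2. With 2 libraries per group, levels can separate without a true difference. The share of all genes that separated in this way was not counted, here or below. The mean ln value per cell, which is the natural log of 1 plus UMIs per 10000, was 3.45 and 4.02 in injured nerve and 2.57 and 1.76 in uninjured nerve. The difference of these means was 1.57 ± 0.25 (SE, limma over 8 libraries, adjusted p = 0.00538). Of all 5298 genes tested 0.566% passed in either direction and 0.359% were higher, and of the members 1 of 4 tested passed.

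Levels per cell were also higher after crush. In injured nerve 1 and 3 the median cell held 44.3 and 72.0 Ftl1 UMIs per 10000, against 17.7 and 10.1 in uninjured nerve 2 and 4. The 10th percentile of cells was at 2.63 and 15.6 per 10000 in injured nerve 1 and 3 and at 0 in both uninjured nerve libraries. With every cell thinned to 1000 UMIs, an Ftl1 UMI was expected in 81.4% and 94.4% of injured nerve cells and in 73.5% and 53.8% of uninjured nerve cells, and unthinned shares were 90.4% and 96.2%, against 78.6% and 60.7%. Thinning left out 67 and 201 cells of the injured and 19 and 9 of the uninjured nerve libraries.

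The Ftl1 difference in nerve was as large without the T-like and oligodendrocyte-like cells (1.55 ± 0.26, limma, adjusted p = 0.0029) and without the border macrophage-like cells (1.86 ± 0.23, adjusted p = 0.00023). It missed the threshold without injured nerve 3 (1.28 ± 0.30, adjusted p = 0.071) and in edgeR on the recovered UMIs (log2 fold change 1.45 ± 0.47, adjusted p = 0.20). It stayed positive in all 13 alternatives and passed in 9 of them, with adjusted p between 0.00023 and 0.30.

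In the retina Ftl1 fell after crush. It stood at 4354 and 3500 CPM in the injured pools, against 7690 and 8621 CPM in uninjured retina 5 and 6. Both injured pools lay below both uninjured libraries, without overlap. The log2 fold change was -1.02 ± 0.29 (SE, edgeR quasi-likelihood test, 4 libraries, adjusted p = 0.0297). In this comparison 19.7% of the 3312 genes tested passed in either direction, 9.99% higher and 9.72% lower, so that 1 call among 4 members is near the background share. Without the T-like cells, which held 22 of 109 and 24 of 57 cells of the pools, the log2 fold change was -0.87 ± 0.23 (edgeR, adjusted p = 0.025). Over all 9 alternatives the call held in 6. The call was lost when either injured pool was left out, at -1.11 ± 0.62 without pool 1 and 2 (adjusted p = 0.22) and -0.71 ± 0.50 without pool 3 and 4 (adjusted p = 0.40).

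**Figure D1:**
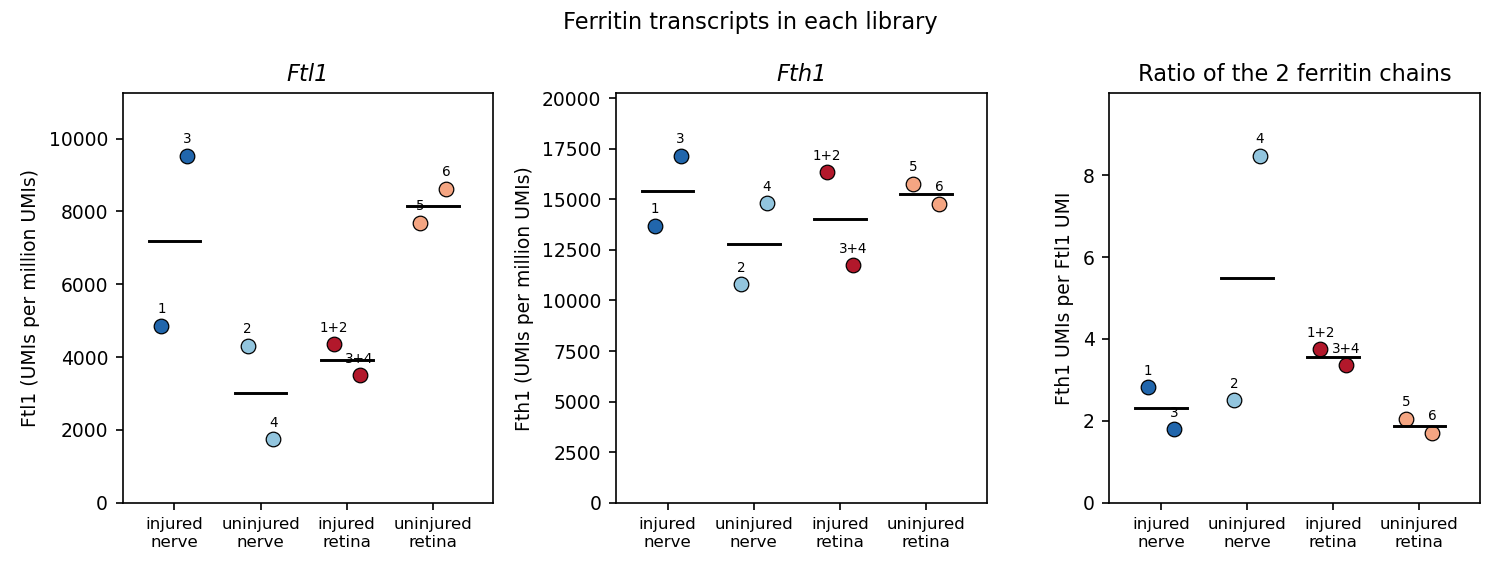
Level of Ftl1 and Fth1 in UMIs per 1000000 UMIs and the number of Fth1 UMIs per Ftl1 UMI, by group; each point is a library with its number and the bar is the mean of the 2 libraries. Ftl1 was higher in both injured than in both uninjured nerve libraries and lower in both injured than in both uninjured retina libraries, whereas Fth1 overlapped between injured and uninjured libraries in both tissues. The share of all genes that separated as Ftl1 did was not counted.

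Fth1, the heavy chain, moved less. It stood at 13699 and 17144 CPM in injured nerve 1 and 3, against 10799 and 14800 CPM in uninjured nerve 2 and 4, and the groups overlapped. The mean ln difference was 0.26 ± 0.15 (limma, adjusted p = 0.72). In retina it stood at 16325 and 11747 CPM in the injured pools, against 15779 and 14779 CPM in uninjured retina, and the injured pools lay on either side of the uninjured libraries. The log2 fold change was -0.10 ± 0.32 (edgeR, adjusted p = 0.86), and the direction turned in 5 of 9 alternatives. In the limma fit over 8 libraries, on mean ln values, Fth1 did pass in retina (-0.73 ± 0.15, adjusted p = 0.0033). Mean ln values weigh all cells alike, and T-like cells were 20.2% and 42.1% of the injured pools, with Fth1 at 1191 and 1506 CPM. Most other cells of the pools had 17814 and 13577 CPM. Homeostatic microglia-like cells of uninjured retina 5 and 6 had 15274 and 14779 CPM. The part of cell makeup in that call was not tested.

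The effect of crush on ferritin differed between the tissues. For Ftl1 the effect in nerve minus the effect in retina was 2.68 ± 0.35 on the ln scale (limma, adjusted p = 0.000395). For Fth1 it was 0.98 ± 0.21 (adjusted p = 0.0147). These 2 of 4 members passed, where 5.61% of all genes tested passed, 1.70% higher and 3.91% lower. On this scale the retina effect was -1.11 ± 0.25 for Ftl1 and -0.73 ± 0.15 for Fth1 (limma, adjusted p = 0.0062 and 0.0033). Without the T-like and oligodendrocyte-like cells the Ftl1 difference between tissues was 2.20 ± 0.37 (limma, adjusted p = 0.0017), whereas that of Fth1 was 0.28 ± 0.16 (adjusted p = 0.31). The Fth1 call was also lost without uninjured nerve 2 (0.81 ± 0.23, adjusted p = 0.078) and in edgeR on summed UMIs (0.55 ± 0.48, adjusted p = 0.59), and it held in 8 of 13 alternatives.

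The uninjured tissues differed in the light chain. Ftl1 was lower in uninjured nerve, at 4306 and 1747 CPM, than in uninjured retina, at 7690 and 8621 CPM. The mean ln difference was -2.05 ± 0.25 (limma, adjusted p = 4.3e-05). Fth1 differed by -0.37 ± 0.15 (adjusted p = 0.127) and missed the threshold. It passed in 3 of 13 alternatives: without injured retina pool 1 and 2 (-0.37 ± 0.091, limma, adjusted p = 0.024), without pool 3 and 4 (-0.37 ± 0.093, adjusted p = 0.027) and without the T-like and oligodendrocyte-like cells (-0.41 ± 0.11, adjusted p = 0.028). With Hmox1, 2 of 4 members passed, where 10% of all genes tested passed, 1.77% higher and 8.25% lower. Homeostatic microglia-like cells were 96.8% and 100% of uninjured retina 5 and 6, but 6.80% of uninjured nerve 2. Border macrophage-like cells were 42.7% of uninjured nerve 2, and oligodendrocyte-like cells 26.2%. The parts of cell makeup and of the differing annotation or merging of uninjured retina were not tested.

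Among injured libraries the order was different. Ftl1 stood at 4863 and 9522 CPM in injured nerve, against 4354 and 3500 CPM in injured retina, and the mean ln difference of 0.62 ± 0.25 missed the threshold (limma, adjusted p = 0.105). It passed in 3 of 15 alternatives, 1 of them without uninjured nerve 4 (0.62 ± 0.19). Fth1 was higher by 0.61 ± 0.15 in mean ln value (adjusted p = 0.0152), 1 of 4 members, where 13.5% of all genes tested passed and 0.755% were higher. Its summed levels overlapped, at 13699 and 17144 CPM in injured nerve and 16325 and 11747 CPM in injured retina. Without the T-like and oligodendrocyte-like cells the Fth1 difference turned to -0.13 ± 0.11 (limma, adjusted p = 0.44). The call was also lost without injured nerve 3 (0.61 ± 0.18, adjusted p = 0.057), without injured retina pool 3 and 4 (0.24 ± 0.11, adjusted p = 0.20) and in edgeR (0.21 ± 0.34, adjusted p = 0.77).

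The ratio of the chains sets Fth1 against Ftl1 within a library, so it does not depend on scaling between libraries. UMIs count transcripts once at the 3′ end, and the ratio is not one of proteins. There were 2.82 and 1.80 Fth1 UMIs per Ftl1 UMI in injured nerve 1 and 3, against 2.51 and 8.47 in uninjured nerve 2 and 4. In injured retina there were 3.75 and 3.36, against 2.05 and 1.71 in uninjured retina 5 and 6. The retina groups did not overlap, while in nerve uninjured library 4 stood far above the rest and library 2 lay between the 2 injured libraries. In the median cell with at least 10 ferritin UMIs, the light chain made up 25.5% and 34.0% of them in injured nerve, 20.7% and 7.05% in uninjured nerve, 20.1% and 20.3% in injured retina, and 31.0% and 37.6% in uninjured retina.

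**Figure D2:**
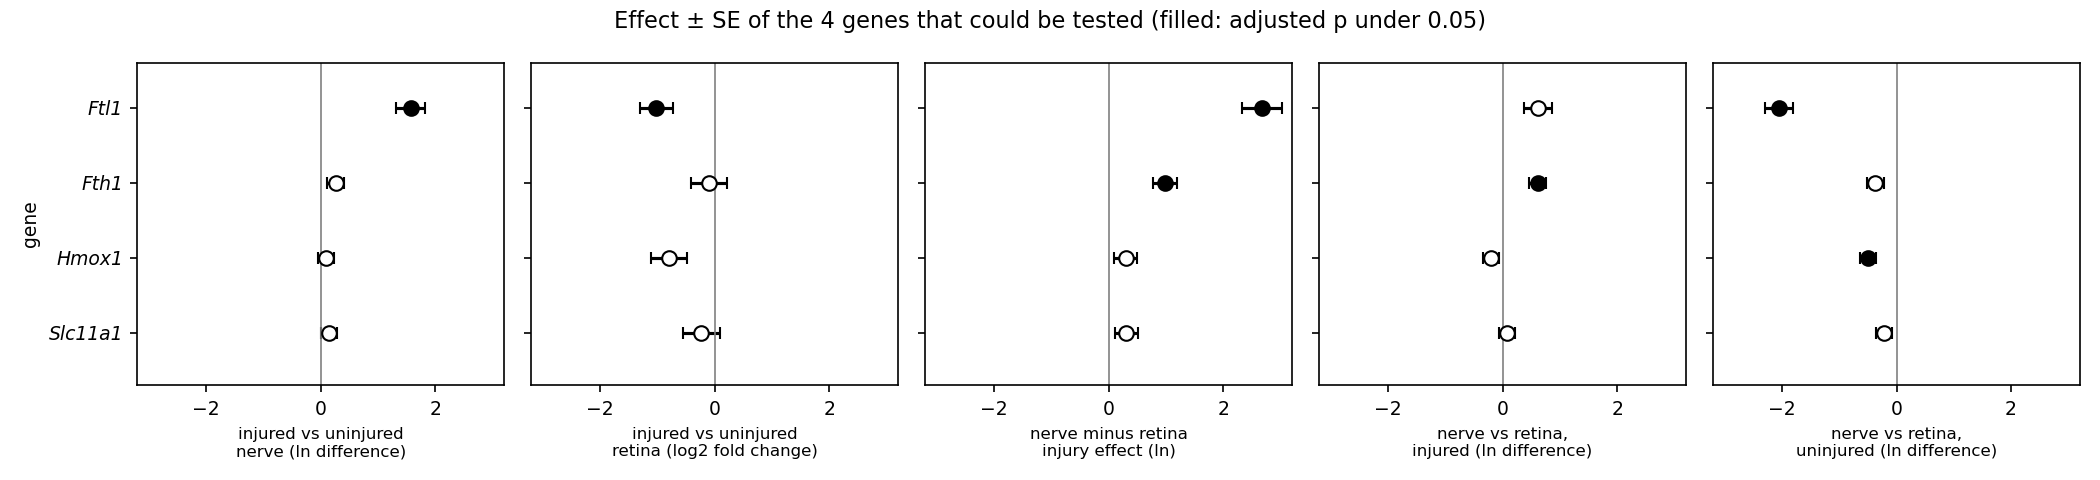
Effect with its standard error (horizontal axis, log2 fold change for injury in retina and difference of mean ln values elsewhere) of the 4 testable genes in 5 comparisons, with filled points where the adjusted p was under 0.05. Ftl1 was at 1.57 for injury in nerve and at -1.02 for injury in retina, and Slc11a1 was unfilled in every panel.

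Clusters made without these genes show which cells carried them. At a Leiden resolution of 0.5 there were 8 clusters. Clusters 0 (438 cells) and 1 (193 cells) were lipid-associated phagocyte-like, led by Spp1, Apoc1 and Apoe among others. Cluster 5 (86 cells) was border macrophage-like, cluster 6 (56 cells) homeostatic microglia-like although led by Ccl3, Egr1 and Jun, cluster 4 (96 cells) oligodendrocyte-like and cluster 7 (47 cells) T-like. Cluster 2 (134 cells, led by Malat1 and Dennd4a, from nerve) and cluster 3 (118 cells, led by Gm42418, Hspa1a and Hspa1b, from injured retina) stayed unnamed. The oligodendrocyte-like and T-like cells go against the label of microglia or macrophage that all cells carry. In retina, injured and uninjured cells fell into different clusters, so only nerve clusters hold both.

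Within nerve clusters at this resolution, both injured libraries lay above both uninjured ones in clusters 2 and 0. In cluster 2 Ftl1 stood at 3011 and 4071 CPM in injured nerve 1 and 3, against 728 and 1058 CPM (14 and 35 UMIs) in uninjured nerve 2 and 4, without overlap. Fth1 in these cells stood at 9314 and 7236 CPM in injured nerve, against 8169 and 12239 CPM in uninjured nerve, with overlap. Hence the ratio was 3.09 and 1.78 in injured nerve, against 11.2 and 11.6 in uninjured nerve.

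In cluster 0 Ftl1 stood at 7337 and 10413 CPM in injured nerve, against 6879 and 2329 CPM in uninjured nerve, where the last rests on 13 UMIs and injured library 1 lay close to uninjured library 2. In border macrophage-like cells it stood at 4056 and 5290 CPM in injured nerve, against 5730 CPM in uninjured nerve 2, where these cells were 44 of 103, so that this cluster ran the other way. Cluster 2 was not found again at a resolution of 1.0. There the homeostatic microglia-like cluster held 20 and 14 cells of uninjured nerve 2 and 4, at 1573 and 1448 CPM of Ftl1, and a cluster led by Malat1 held 58 cells of injured nerve 3, 1 of injured nerve 1 and none of uninjured nerve. The difference within cluster 2 is thus one of this clustering. At 1.0 the lipid-associated phagocyte-like cluster 0 held 28 and 204 cells of injured nerve 1 and 3, but 1 and 0 of uninjured nerve 2 and 4. An oligodendrocyte-like cluster held 8 cells each of uninjured nerve 2 and 4. There Ftl1 stood at 7610 and 8765 CPM in injured nerve, against 6423 and 2329 CPM in uninjured nerve. The name of the cells that carry the cluster 0 difference thus also depends on the clustering. Cluster makeup differed along with injury, with cluster 0 holding 64.4% and 47.8% of the cells of injured nerve 1 and 3, against 9.71% and 28.6% of uninjured nerve 2 and 4, and cluster 1 a further 27.4% of injured nerve 3. The part of this makeup in the Ftl1 difference was not tested.

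Oligodendrocyte-like cells of cluster 4 carried heavy chain with little light chain. Fth1 stood at 14309 and 16157 CPM in injured nerve 1 and 3, against 14362 CPM in uninjured nerve 2. Ftl1 stood at 1475 and 3455 CPM in injured nerve, against 1368 CPM in uninjured nerve 2. The ratio was thus 9.70 and 4.68 in injured nerve, against 10.5 in uninjured nerve. These were among the highest of any cluster, but cluster 2 of uninjured nerve 2 and 4 stood higher, at 11.2 and 11.6. T-like cells held little of either chain, with Fth1 at 1191 and 1506 CPM and Ftl1 at 900 and 976 CPM in the injured retina pools, and their ratio of 1.32 and 1.54 was the lowest of the clusters. Cluster 3, which held most of the other cells of those pools, had ratios of 3.83 and 3.44. At a resolution of 1.0 an oligodendrocyte-like cluster of 107 cells had Ftl1 at 2959 CPM and Fth1 at 15916 CPM. Another of that name, with 127 cells led by Mbp, Cst3 and Il1b, had Ftl1 at 7855 CPM and Fth1 at 18026 CPM. The low light chain of oligodendrocyte-like cells thus depended on the clustering.

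**Figure D3:**
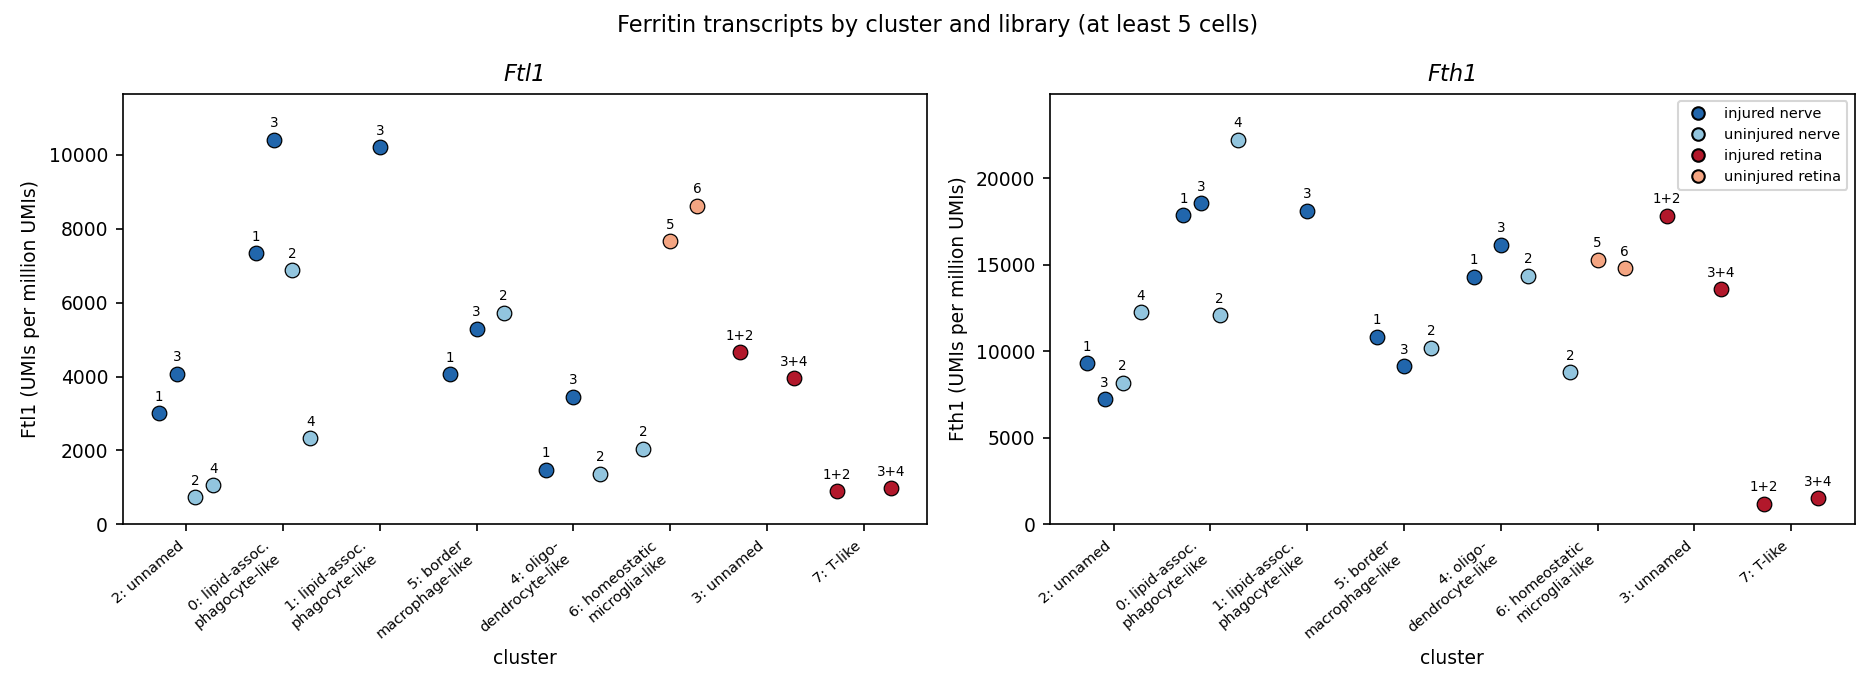
Level of Ftl1 and Fth1 in UMIs per 1000000 UMIs by cluster; each point is a library, labelled by its number, with at least 5 cells of that cluster, and colour gives the group. Ftl1 in cluster 2 was higher in both injured than in both uninjured nerve libraries, and T-like cells were lowest for Fth1.

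Hmox1, the inducible haem oxygenase, had 1240 UMIs in 31.0% of cells. In nerve it stood at 100 and 125 CPM in injured libraries 1 and 3, against 179 and 47.6 CPM (4 UMIs in the last) in uninjured libraries 2 and 4. The uninjured libraries lay on either side of the injured ones, and the mean ln difference was 0.09 ± 0.14 (limma, adjusted p = 0.97). In retina it stood at 226 and 251 CPM in the injured pools, against 490 and 299 CPM in uninjured retina 5 and 6. The groups did not overlap, and the log2 fold change of -0.80 ± 0.31 missed the threshold (edgeR, adjusted p = 0.0871). It passed without uninjured retina 6 (-1.11 ± 0.34, adjusted p = 0.014) and was -0.02 ± 0.44 (adjusted p = 0.98) without uninjured retina 5, so that 1 library of 31 cells decided its size.

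Hmox1 was higher in retina than in nerve. In uninjured tissue the mean ln difference, nerve minus retina, was -0.50 ± 0.14 (limma, adjusted p = 0.032), with 179 and 47.6 CPM in nerve and 490 and 299 CPM in retina. This call held in 5 of 13 alternatives, and it was lost without either injured retina pool (-0.50 ± 0.15, adjusted p = 0.052 and 0.053), uninjured nerve 2 (-0.56 ± 0.18, adjusted p = 0.10), uninjured nerve 4 (-0.44 ± 0.19, adjusted p = 0.23) or uninjured retina 5 (-0.26 ± 0.12, adjusted p = 0.15). Among injured libraries the difference was -0.20 ± 0.14 (adjusted p = 0.38). By cluster and library, Hmox1 stood at 248 and 296 CPM in cluster 3 of the injured retina pools. Homeostatic microglia-like cells had 146 CPM (5 UMIs) in uninjured nerve 2 and 519 and 299 CPM in uninjured retina 5 and 6. Border macrophage-like cells had 216 and 60.7 CPM (11 UMIs each) in injured nerve 1 and 3, against 260 CPM in uninjured nerve 2. Oligodendrocyte-like cells were between 27.8 and 47.0 CPM in their 3 libraries, each with at most 4 UMIs. The clusters with most Hmox1 thus overlapped by library. No T-like cell had a UMI (0 of 47, for which up to 6.38% of cells with a UMI cannot be told from 0).

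Slc40a1, the only known iron exporter of mammalian cells, was scarce, with 116 UMIs in 82 cells (7.02%). In nerve it had 0 UMIs in injured library 1 and 69 UMIs (13.2 CPM) in injured library 3, against 5 and 2 UMIs (14.2 and 23.8 CPM) in uninjured libraries 2 and 4. The 0 of injured nerve 1 allows up to 9.41 CPM, which is the level of 3 UMIs, or a UMI in up to 2.05% of its 146 cells. In retina it had 28 and 4 UMIs (19.7 and 12.9 CPM) in the injured pools, against 5 and 3 UMIs (35.0 and 52.8 CPM) in uninjured retina 5 and 6. The uninjured retina levels were the highest of the 8 libraries but rest on 8 UMIs, and the gene did not pass the filters on low values, so it was not tested. Homeostatic microglia-like cells had 34.1 CPM (11 UMIs), and cluster 0 had 4.75 CPM (3 UMIs).

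Slc11a1, the phagosomal metal transporter of macrophages, had 1880 UMIs in 43.9% of cells. In nerve it stood at 273 and 272 CPM in injured libraries 1 and 3, against 125 and 190 CPM in uninjured libraries 2 and 4. The groups did not overlap in CPM, and in mean ln value, at 0.551 and 0.743 in injured nerve and 0.464 and 0.550 in uninjured nerve, they nearly touched. The mean ln difference was 0.14 ± 0.14 (limma, adjusted p = 0.93). In retina it stood at 166 and 122 CPM in the injured pools, against 182 and 158 CPM in uninjured retina, with overlap (log2 fold change -0.23 ± 0.33, edgeR, adjusted p = 0.66). Neither comparison of the tissues passed, at 0.08 ± 0.14 for injured (limma, adjusted p = 0.75) and -0.22 ± 0.14 for uninjured libraries (adjusted p = 0.34).

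By cluster, Slc11a1 in the unnamed cluster 2 stood at 326 and 445 CPM in injured nerve 1 and 3, against 624 and 423 CPM (12 and 14 UMIs) in uninjured nerve 2 and 4. In cluster 0 it stood at 186 and 296 CPM in injured nerve, against 134 CPM (2 UMIs) and 0 UMIs in uninjured nerve. In cluster 3 it stood at 183 and 144 CPM in the injured retina pools, and in homeostatic microglia-like cells at 176 and 158 CPM in uninjured retina. Border macrophage-like cells ranged widely, at 372 and 49.7 CPM (19 and 9 UMIs) in injured nerve, against 103 CPM in uninjured nerve 2, so no order of the named clusters is given. Oligodendrocyte-like cells had 30.5 CPM (6 UMIs in 4 of 96 cells) and T-like cells had none (0 of 47). At a depth of 1000 UMIs a Slc11a1 UMI was expected in 32.3% of cluster 2 cells and 3.60% of oligodendrocyte-like cells, whereas all UMIs gave 58.2% and 4.17%, at median depths of 2050 and 1539 UMIs.

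Clusters 0 and 1 show how shares follow depth. Their median cells held 964 and 21218 UMIs, and a Hmox1 UMI was seen in 15.8% of cells of cluster 0 and in 77.7% of cells of cluster 1. Yet Hmox1 stood at 139 and 133 CPM, Slc11a1 at 272 and 280 CPM, Ftl1 at 9787 and 10186 CPM and Fth1 at 18331 and 18117 CPM in clusters 0 and 1. At 1000 UMIs per cell the Hmox1 shares were 10.8% and 11.1%.

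Slc11a2, the divalent metal transporter that takes iron out of endosomes, had 137 UMIs in 108 cells (9.25%). It stood at 53.3 and 12.99 CPM (17 and 68 UMIs) in injured nerve 1 and 3, against 11.4 and 23.8 CPM (4 and 2 UMIs) in uninjured nerve 2 and 4. Injured nerve 1 stood apart, and 11 of its 17 UMIs lay in the 25 cells of cluster 2, at 99.5 CPM. In retina there were 24.6 and 22.5 CPM (35 and 7 UMIs) in the injured pools, against 21.0 and 17.6 CPM (3 and 1 UMIs) in uninjured retina. The gene did not pass the filters and was not tested.

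Tfrc, which takes up iron bound to transferrin, was the scarcest member, with 56 UMIs in 43 cells (3.68%). It had 3 and 21 UMIs (9.41 and 4.01 CPM) in injured nerve 1 and 3, against 13 and 1 UMIs (37.0 and 11.9 CPM) in uninjured nerve 2 and 4. In retina it had 12 and 5 UMIs (8.45 and 16.1 CPM) in the injured pools, against 0 and 1 UMIs in uninjured retina 5 and 6, where the 0 allows up to 21.0 CPM. It was not tested. Its level was highest in 2 clusters without phagocyte names: oligodendrocyte-like cells had 55.9 CPM (11 UMIs) and T-like cells had 49.5 CPM (8 UMIs), while the other clusters had between 2.41 and 12.4 CPM. Of the 13 UMIs of uninjured nerve 2, 8 lay in its 27 oligodendrocyte-like cells, and of the 5 UMIs of injured retina pool 3 and 4, 2 lay in T-like cells.

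**Figure D4:**
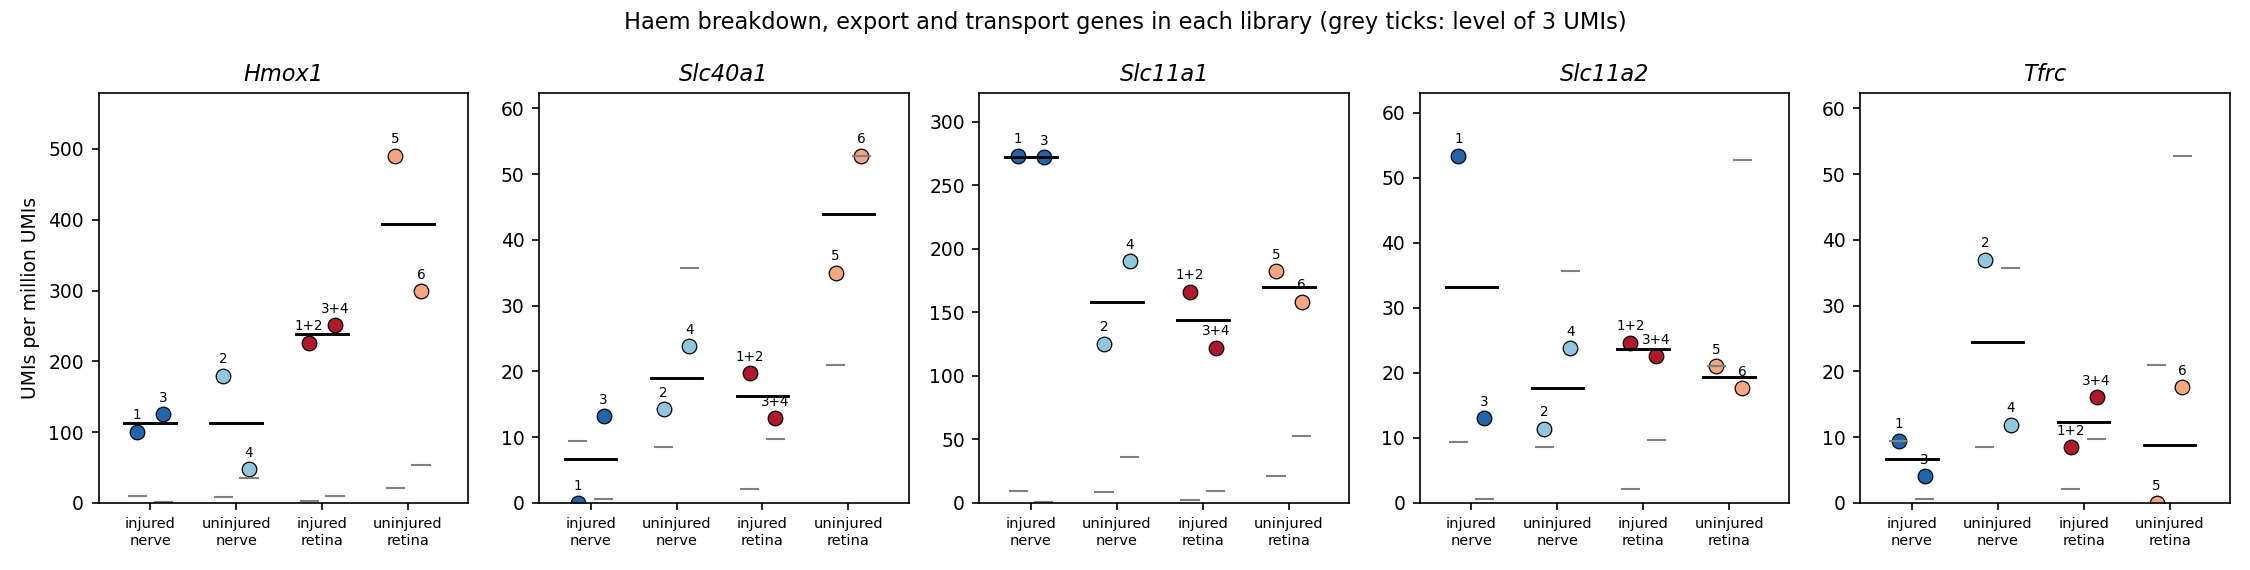
Level of Hmox1, Slc40a1, Slc11a1, Slc11a2 and Tfrc in UMIs per 1000000 UMIs by group; each point is a library with its number, the black bar is the mean of the 2 libraries and the grey tick is the level of 3 UMIs in that library. Slc40a1, Slc11a2 and Tfrc lie at or near the grey ticks in most libraries with few cells, whereas Slc11a1 is at 273 and 272 in injured nerve.

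The genes closest in pattern were found by the root mean square difference of centred log2(CPM + 10) over the 8 libraries, among 2522 genes. For Ftl1 these were Bax (0.244), a promoter of apoptosis, Lamtor1 (0.251), a lysosomal membrane anchor, and Fcer1g (0.252), the signalling chain of Fc receptors, where Ftl1 itself deviated by 0.750. Fcer1g stood at 1883 and 2749 CPM in injured nerve 1 and 3, 1477 and 927 CPM in uninjured nerve 2 and 4, 1443 and 1190 CPM in the injured retina pools, and 2780 and 2639 CPM in uninjured retina. For Fth1, which itself deviated by 0.217, they included Mbd3 (0.114) and Atp5e (0.151). For Hmox1 (0.906 itself) they were Epsti1 (0.333), Ppp6r1 (0.342) and Ccdc86 (0.381). For Slc11a1 (0.390 itself) they were Mlec (0.226), Ppm1g (0.241) and Cadm1 (0.247). For Slc11a2 (0.447 itself) they were Samsn1 (0.148), Rab20 (0.238) and Nfkb1 (0.243). Fth1, Slc11a1 and Slc11a2 deviated less than Ftl1, so a small difference says less for them. Slc40a1 and Tfrc had libraries at 0 and were left out.

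On the wider iron list genes went both ways, and no test of the list as a whole was made. After crush in nerve 1 of its 44 tested genes passed, Ftl1, a share of 2.27% where 0.566% of all genes passed, and its median effect was 0.01, against -0.02 over all genes. Outside the storage genes the smallest p-values belonged to Hif1a, the oxygen-regulated transcription factor (0.53 ± 0.17, adjusted p = 0.28), Txnrd1, a thioredoxin reductase (0.23 ± 0.08, adjusted p = 0.34), Bola2 (0.35 ± 0.15, adjusted p = 0.53) and Cp, the ferroxidase ceruloplasmin (-0.15 ± 0.065, adjusted p = 0.54). Slc22a17, Iscu, Slc48a1 and Sfxn1 followed with effects between -0.18 and -0.07, and none of them passed (limma).

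In retina 5 of 25 tested iron genes passed, 2 higher and 3 lower, a share of 20% where all genes gave 19.7%, and their median was -0.10, against 0.07 over all genes. Sqstm1, an autophagy receptor and target of the oxidative stress factor NRF2, fell to 377 and 318 CPM in the injured pools, against 777 and 616 CPM in uninjured retina (log2 fold change -1.01 ± 0.28, edgeR, adjusted p = 0.0284). Hmox2, the constitutive haem oxygenase, fell to 51.4 and 29.0 CPM, against 112 and 158 CPM (-1.52 ± 0.44, adjusted p = 0.0343). Bach1, a haem-sensing repressor whose known targets include Hmox1 and the ferritin genes, rose to 123 and 167 CPM, against 42.0 and 52.8 CPM from 6 and 3 UMIs (1.63 ± 0.46, adjusted p = 0.0306).

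Txnrd1 also passed in retina, with 76.7 and 51.5 CPM (109 and 16 UMIs) in the injured pools, against 1 and 0 UMIs in uninjured retina. Its fitted log2 fold change of 3.69 ± 0.93 (edgeR, adjusted p = 0.019) depends on the prior count and is no bound. Nfe2l2, which encodes NRF2, stood at -1.03 ± 0.35 (adjusted p = 0.0563), Iscu, the scaffold of iron-sulphur clusters, at -0.93 ± 0.38 (adjusted p = 0.106), and Alas1, the first enzyme of haem synthesis, at 1.03 ± 0.58 (adjusted p = 0.225). Gpx4, which detoxifies lipid peroxides, Trf, which encodes transferrin, and Pcbp2, an iron chaperone, were between -0.47 and 0.36 and did not pass.

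Between the tissues 4 of 44 iron genes passed in injured libraries (9.09%, where all genes gave 13.5%) and 7 of 44 in uninjured ones (15.9%, where all genes gave 10%). In injured libraries Fth1 was higher in nerve, and Hif1a (-0.59 ± 0.17, limma, adjusted p = 0.0306), Sqstm1 (-0.62 ± 0.18, adjusted p = 0.0325) and Acsl4, which makes the lipids open to peroxidation (-0.25 ± 0.08, adjusted p = 0.0451), were lower. In uninjured libraries Ftl1, Hmox1, Sqstm1 (-1.28 ± 0.18, adjusted p = 0.000228), Hif1a (-0.57 ± 0.17, adjusted p = 0.0413) and Hmox2 (-0.36 ± 0.11, adjusted p = 0.0459) were lower in nerve. Cp (0.27 ± 0.065, adjusted p = 0.013) and Ncoa4, the receptor that carries ferritin to the lysosome (0.21 ± 0.057, adjusted p = 0.0248), were higher in nerve, but uninjured retina held 1 and 0 UMIs of Cp and 0 of Ncoa4 in both libraries. The part of the difference in annotation or merging in those values was not tested.

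The crush effect differed between tissues for Ftl1 and Fth1 alone among the 44 iron genes tested, a share of 4.55% where all genes gave 5.61%. Next by p were Sfxn1, a mitochondrial carrier (-0.19 ± 0.067, limma, adjusted p = 0.0933), Cp (-0.27 ± 0.093, adjusted p = 0.095), Ncoa4 (-0.23 ± 0.081, adjusted p = 0.107) and Hmox2 (0.42 ± 0.15, adjusted p = 0.116). Trf, the partner of Tfrc, had 1431 and 2395 CPM in injured nerve 1 and 3, 1648 and 1534 CPM in uninjured nerve 2 and 4, 797 and 515 CPM in the injured retina pools, and 490 and 563 CPM in uninjured retina. All nerve libraries stood above all retina libraries in CPM. Among nerve libraries Trf was highest in injured nerve 3, where the oligodendrocyte marker sum was lowest, at 1192 CPM. The part of cell makeup in the Trf levels was not tested. The mean ln differences of 0.83 ± 0.30 in injured (limma, adjusted p = 0.0699) and 0.29 ± 0.30 in uninjured libraries (adjusted p = 0.57) missed the threshold. The comparisons share libraries, so their values are not independent of each other.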

How the data were processed

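For retina cells the authors deposited raw UMI counts per gene and cell. For optic nerve cells the deposited values were natural log (ln) values, of 1 plus 10000 times UMIs over the cell's total, per the values themselves. Undoing the log gave whole UMIs within 0.01 for 1374534 of 1374534 values. Per the submitters' processing notes, Cell Ranger 1.3, bcl2fastq 2.17.1.14, Seurat 4.0.3 and build mm10 were used, and per the design text cells had 200 to 6500 genes and batches were merged, normalized and integrated with harmony; which steps reached each column is not stated.

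Library values are summed UMIs per 1000000 (CPM) or mean ln values. Only the first 27998 entries, shared by all libraries, were tested. Injury in retina used edgeR 4.0.16 quasi-likelihood (TMM, filterByExpr). The other comparisons used limma 3.58.1 (trend) over 8 libraries, on the 5298 genes detected in 10% or more of cells and in both tissues. Adjusted p is Benjamini-Hochberg over all genes tested, with a threshold of 0.05. Slc40a1, Slc11a2 and Tfrc did not pass the filters. Fits were run on simulated cells with counting error and a spread between libraries, but without cell types or differing annotation. That run thus does not show how those features affect the calls. DESeq2 1.42.0 was an alternative.

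Clusters came from scanpy 1.11.5 (2000 variable genes, 30 components, 15 neighbours) without the iron genes. A name needed 1 marker among the 10 leading genes and 3 among 50, more than any other list, a rule set after clusters were seen. No doublet caller was run. Limits of 0 are 3 counts and cover counting error only. The members and lists were chosen with earlier results of these data known. The text names every member, every iron gene past the threshold and, for injury and the interaction, the genes with the smallest p among those that missed it, in part by role group. CPM for retina and nerve rest on 2 forms of deposit, and depth sets precision: libraries held 56838 to 5234954 UMIs. The mean ln value can differ at a like CPM. Slc11a1, at 273 and 272 CPM in injured nerve 1 and 3, had mean ln values of 0.551 and 0.743. The median cell there held 1078 and 2060.5 UMIs, and the part of depth in mean ln values was not tested. One gene close to a member in pattern is not reported here.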

Additional observations from a re-analysis of the deposited data

Results flagged for a closer look

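The effect of crush on 2 ferritin genes differed between optic nerve and retina by the test of the difference itself. For Ftl1 the effect in nerve minus the effect in retina was 2.68 ± 0.35 in mean ln value (limma, adjusted p = 0.000395). Ftl1 was higher in both injured than in both uninjured nerve libraries and lower in both injured than in both uninjured retina libraries. With 2 libraries per group this can occur without a true difference, and the share of all genes that separated so was not counted. For Fth1 the difference of effects was 0.98 ± 0.21 (adjusted p = 0.0147), and it was 0.28 ± 0.16 (adjusted p = 0.31) without the T-like and oligodendrocyte-like cells. The uninjured retina libraries, whose annotation or merging differed, enter both values, and the part of that difference was not tested.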

How the results depend on the processing

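Counts of genes past the threshold depended on the method. Injury in retina gave 653 genes, 295 with DESeq2 and 415 to 699 when a library was left out. The split of higher and lower genes was 331 and 322, against 623 and 276 with limma on 8 libraries and 506 and 247 without a filter. Injury in nerve gave 30 genes, 53 with edgeR on recovered UMIs, 1 without a filter, 52 without border macrophage-like cells and 7 to 67 when a library was left out. The interaction gave 297 genes, against 72, 28 and 102 with edgeR, without a filter and with log2 of summed CPM, and 86 to 541 when a library was left out, and the split was 90 and 207, against 35 and 37 with edgeR and 14 and 14 without a filter. Injured nerve against injured retina gave 713 genes, against 383, 440 and 87 in those 3 alternatives and 143 to 1085 when a library was left out, and the split was 40 and 673, against 193 and 190 with edgeR and 34 and 53 with log2 of summed CPM. Uninjured nerve against uninjured retina gave 531 genes, 120 with edgeR and 227 to 907 when a library was left out, and the split was 94 and 437, against 56 and 64 with edgeR and 242 and 116 with log2 of summed CPM. With a single library left in a group, that library is assumed to vary like the others. The median effect over all genes was 0.17 in that last alternative, against -0.04, and 0.52 in retina without a filter, against 0.07. The causes were not tested.

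With a replicate block over the 4 injured libraries, paired by number, 530 genes passed. The labels do not say that a number marks a shared animal, and the deviations of the pair correlated at -0.182 over 5298 genes. The crossed pairing, added after seeing the data, gave 1818 genes.

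Ftl1 kept its sign in every alternative run in all 5 comparisons. Its call held in 9 of 13 alternatives for nerve, 6 of 9 for retina, 11 of 13 for the interaction and 12 of 13 for uninjured tissues. Between injured tissues it passed in 3 of 15, and its effect was 0.62 with the replicate block. By number, mean ln values were 3.45 in injured nerve 1 against 3.41 in pool 1 and 2. They were 4.02 in injured nerve 3 against 2.81 in pool 3 and 4. The 2 pairs thus differed widely, and the labels do not give the pairing, so no p-value of that block is given. Fth1 in retina turned to 0.02 with DESeq2, 0.11 without a filter, 0.08 without T-like and oligodendrocyte-like cells, 0.28 without injured retina pool 3 and 4 and 0.24 without uninjured retina 5, in a range of -0.28 to 0.28 over left-out libraries. Fth1 in injured nerve against injured retina turned to -0.13 without T-like and oligodendrocyte-like cells. Slc11a1 turned to 0.09 and 0.22 in retina without injured pool 3 and 4 and without uninjured retina 5, in a range of -0.43 to 0.22. In injured nerve against injured retina it turned to -0.11 without T-like and oligodendrocyte-like cells, -0.03 without injured pool 3 and 4 and -0.01 without injured nerve 3, in a range of -0.03 to 0.20 over left-out libraries. Hmox1 in nerve was -0.0014 without injured nerve 3, in a range of -0.0014 to 0.18. At a resolution of 1.0, 13 of 35 cluster levels of the members lay outside their interval. Thinning to 1000 UMIs moved 29 of 56 shares outside their interval. Depth limits Slc40a1, Slc11a2 and Tfrc, which had 8, 4 and 1 UMIs in uninjured retina.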
